A study of Mus musculus with 2 samples.

Results

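Genomic imprinting leaves 1 parental copy of a gene active and the other silent, through DNA methylation set in the germ line and kept at control regions by methyltransferases and zinc finger proteins. Several imprinted genes are highly expressed in the fetus and placenta, act on growth or on the exit from the cell cycle, and are turned down in most tissues after birth. Described here are 10 imprinted genes outside the Dlk1-Dio3 region, of 19394 genes in the matrix, in cultured renal progenitors of the mouse. They were listed by name, with earlier results of these data known, and each was found as 1 row under its symbol. For 7 of them the paternal copy is the one known to be active (Mest, Plagl1, Nnat, Snrpn, Peg3, Usp29 and the noncoding RNA Kcnq1ot1), and for 3 the maternal copy (Phlda2, Ppp1r9a and Igf2r). The imprint of Ppp1r9a is known mainly from the placenta, and which copy of any gene was transcribed in these cells was not measured.

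The study compared 2 droplet single-cell libraries, 1 per treatment, to learn how panobinostat, an inhibitor of histone deacetylases, acts on progenitors of the Pax2 lineage. Both came from healthy C57Bl/6 mice aged 9 weeks (n = 2) that carried Pax2.rtTA;TetO.Cre together with the reporter R26.mT/mG. In them an inducible Cre under control of Pax2 turns a membrane label from tomato to GFP, also in the vehicle group, so the cells are those in which this Pax2 driver was once active. Cells that had grown out of isolated glomeruli for 5 days were sorted on GFP and starved for 16 h. They were then kept for 48 h in medium with DMSO (the vehicle library) or with panobinostat at 0.2 µM (the panobinostat library). The sources used here do not say how mice and cultures were divided between the libraries, and on 1 inbred strain the parental copies carry no differences to read. With 1 library per treatment there is no spread between replicates and no test: the intervals below are 95% intervals for counting error alone, and an effect of the treatment cannot be told apart from whatever else set the 2 libraries apart.

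The vehicle library held 2854 cells and 90754967 UMIs, and the panobinostat library 2281 cells and 104188927 UMIs. A UMI is 1 tagged transcript molecule, and levels are given as UMIs per 1000000 UMIs of the library (CPM). Since 1 molecule gives 1 tag near its 3′ end, CPM was not divided by transcript length. The progenitor markers Pax2 and Pax8, transcription factors of the kidney lineage, were present in both, at 40.4 and 24.9 CPM for Pax2 and 120.2 and 119.9 CPM for Pax8. By cell cycle scores 64.4% of vehicle cells and 0.175% of panobinostat cells were called S or G2/M, and the median mitochondrial share per cell was 5.10% and 6.96%. The summed level of each marker list of other cell types was higher with panobinostat. The summed level was 12.8 and 24.4 CPM for 6 podocyte genes, 20.6 and 70.5 CPM for 6 endothelial genes, 5.18 and 68.2 CPM for 4 leukocyte genes, and 9.73 and 14.6 CPM for 4 genes of the proximal tubule. It was at most 1.07 and 4.58 CPM for those of fibroblasts (4 genes), of mesangial cells and pericytes (4) and of the distal tubule and collecting duct (5). In the endothelial list the sum followed Egfl7 (11.5 and 67.3 CPM), and of the other 5 genes Kdr was higher with panobinostat (0.79 and 2.57 CPM), Cdh5 (0.82 and 0.04 CPM), Pecam1 (0.75 and 0.44 CPM) and Emcn (6.68 and 0.09 CPM) were lower, and Tek had 4 and 5 UMIs. In the leukocyte list it followed Cd68 (4.11 and 65.5 CPM), with the defining marker Ptprc at 0.61 and 1.98 CPM. In the proximal tubule list the higher sum came from Lrp2 (0.65 and 11.7 CPM). There Aqp1 (8.24 and 1.95 CPM) and Kap (8 and 1 UMIs) were lower, and Cubn stood at 0.75 and 0.86 CPM. The podocyte gene Wt1 and the tubule gene Umod were among the markers with 0 UMIs with vehicle, and no marker with a row had 0 UMIs with panobinostat. The part of other cell types in the values below was not tested.

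The genes lie on 5 chromosomes, 5 of them on chromosome 7, at coordinates of GENCODE M21 on GRCm38. Peg3 (chromosome 7, 6703892 to 6730431, minus strand) and Usp29 (6730578 to 6967219, plus strand) run away from each other, with 146 bases between their annotated starts. This stretch is shown because the values across cells given further on compare the genes on either side of it. A promoter with the ZFP57 letters and one without are shown next to it: those of Mest (chromosome 6, 30723547 to 30748465), the gene with the largest ratio in the group, and of Ppp1r9a (chromosome 6, 4902917 to 5165661), one of the genes that were lower. Each is read 5′ to 3′ on the strand of its gene (the shared stretch on the plus strand) from the RefSeq promoter table of GRCm38.p6, cut where an annotated exon begins. Capitals mark TGCCGC, the letters bound by the imprint guardian ZFP57, or GCGGCA, the same letters on the other strand.
Peg3-Usp29, chr7:6730432-6730577, plus strand: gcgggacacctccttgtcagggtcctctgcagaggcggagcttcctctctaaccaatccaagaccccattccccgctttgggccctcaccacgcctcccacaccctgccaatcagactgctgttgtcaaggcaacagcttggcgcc
Mest, chr6:30737800-30738049, plus strand: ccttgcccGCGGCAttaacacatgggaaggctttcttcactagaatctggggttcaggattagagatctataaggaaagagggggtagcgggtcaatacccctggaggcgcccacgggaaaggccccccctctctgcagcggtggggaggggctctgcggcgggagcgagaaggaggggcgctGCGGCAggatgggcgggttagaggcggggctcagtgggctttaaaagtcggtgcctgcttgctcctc
Ppp1r9a, chr6:4903061-4903310, plus strand: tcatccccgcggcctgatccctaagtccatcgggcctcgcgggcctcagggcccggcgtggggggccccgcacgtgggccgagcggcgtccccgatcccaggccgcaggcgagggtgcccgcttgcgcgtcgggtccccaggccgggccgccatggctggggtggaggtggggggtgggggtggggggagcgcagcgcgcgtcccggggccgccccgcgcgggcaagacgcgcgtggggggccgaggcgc

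All 10 genes had at least 1 RefSeq promoter window, and CpG sites were counted in the 250 bases before the start, in the window richest in CpG where a gene had several. The 3 genes with an active maternal copy had 21 to 35 CpG sites there (Phlda2 21, Igf2r 27, Ppp1r9a 35). The 7 with an active paternal copy had 4 (Snrpn) to 19 (Plagl1), and the median of 32851 windows in the table was 6. The window of Phlda2 held more CpG sites than 83.7% of all windows and that of Plagl1 more than 80.3%. This order rests on taking the richest window: the other window of Ppp1r9a held 8, inside the range of the paternal group. TGCCGC was found, on either strand, 2 times in the richest window of Mest and 1 time in that of Plagl1, and in none of the richest windows of the other genes. Another window of Mest, at 30733256 to 30733505, held 7 CpG sites and 0 matches. Of all windows 8.68% held at least 1 match and 0.874% at least 2. GCCATNTT, the core bound by YY1, was found in none of these windows and in 3.91% of the table. GGGCGG, the box bound by SP1, stood before Mest, Plagl1, Phlda2, Ppp1r9a and Igf2r, and in 32.7% of the table. A core of the CTCF motif was in none of these windows and in 0.0335% of the table. These are matches of letters in a short window and say nothing about binding.

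Calls required 3 things: a CPM that differed at least 2-fold, a counting interval without equality, and a floor of 10 CPM in 1 library or both. Of the 10 genes 9 passed that floor. Mest, Plagl1, Nnat and Snrpn, all with an active paternal copy, were higher with panobinostat, and Phlda2 and Ppp1r9a, with an active maternal copy, were lower. Among all 8872 genes past the floor, 9.85% were called higher and 11.0% lower, a split of 47.3% higher among the calls that became 82.3% when UMIs per cell were compared with no scaling for depth. Plagl1 and Snrpn passed the floor through the panobinostat library alone, and Phlda2 and Ppp1r9a through the vehicle library alone, so the floor itself favoured those 4 calls. With no floor the counts over all 10 genes were again 4 higher and 2 lower, against 21.5% and 9.64% of 19394 genes. With no floor the median log2 ratio was 1.25 over the 7 genes of the paternal copy and -1.67 over the 3 of the maternal copy. Over all genes it was 0.13 with no floor and -0.07 past the floor. Medians leave out genes with 0 UMIs in 1 library, which have no finite ratio. The value over all genes past the floor became -0.18 with TMM factors, -0.19 with DESeq2 size factors and 0.45 per cell, and single ratios are to be read against it. Past the floor the medians were 1.32 over 6 genes of the paternal copy and -1.67 over 3 of the maternal copy. In cells called G1 they were 1.06 over 6 genes and -0.56 over 2 (Ppp1r9a at -1.80 and Igf2r at 0.68). Phlda2, at -1.68 in those cells, fell below the floor there. The maternal value thus covers fewer genes and is not to be set against -1.67. The genes were chosen with earlier results known, so this contrast by copy is description only.

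**Figure D1:**
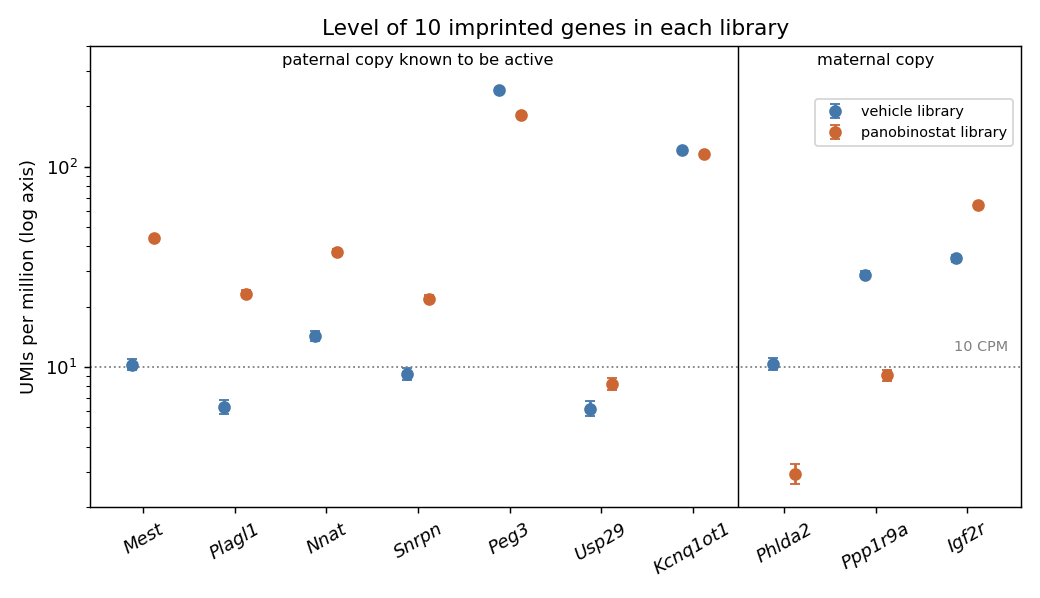
Level of each gene in CPM (log axis) in both libraries, with exact Poisson 95% intervals. Mest, Plagl1, Nnat and Snrpn lie higher with panobinostat, Phlda2 and Ppp1r9a lower, while Kcnq1ot1 stands at 120.8 CPM with vehicle beside 115.2 with panobinostat.

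Mest encodes a membrane enzyme of the alpha/beta hydrolase fold and is abundant in embryonic mesoderm. It had 934 UMIs in the vehicle cells, a level of 10.3 CPM (interval 9.64 to 10.97), and 4569 in the panobinostat cells, a level of 43.9 CPM (42.6 to 45.1). The level was 4.26-fold higher with panobinostat (log2 ratio 2.09, interval 1.99 to 2.19). Cells were thinned to 18663 UMIs each to compare shares at 1 depth, which left 2401 vehicle and 2221 panobinostat cells. At least 1 UMI of Mest was then found in 13.5% of the vehicle cells (exact binomial interval 12.2 to 14.9) and in 44.4% of those given panobinostat (42.3 to 46.5), where unthinned cells gave 18.2% and 63.1%. No sorted population known to lack these genes was available, so the part of free RNA in such shares was not tested.

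Plagl1 encodes a zinc finger transcription factor that can arrest the cell cycle and that acts on other imprinted genes. From 573 and 2418 UMIs its level was 6.31 CPM with vehicle and 23.2 with panobinostat. That is 3.68-fold higher, a log2 ratio of 1.88 with an interval of 1.75 to 2.01. The share of thinned cells with a UMI was 8.87% (7.76 to 10.1) and 27.2% (25.3 to 29.1), against 12.7% and 44.0% unthinned. Plagl1 lies on chromosome 10 from 13060504 to 13131694.

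Nnat encodes neuronatin, a small protein of the endoplasmic reticulum membrane, and lies on chromosome 2 (157560078 to 157562522) wholly inside the gene Blcap on the opposite strand. Its 1295 and 3902 UMIs gave 14.3 CPM with vehicle and 37.5 with panobinostat. The level was 2.62-fold higher in the second library, at a log2 ratio of 1.39 (1.30 to 1.48). Thinned cells with a UMI made up 11.7% (10.4 to 13.1) and 23.3% (21.6 to 25.1), against 14.7% and 32.9% unthinned. Its UMIs were the most clumped of the 4 higher genes. The 5% of cells richest in Nnat held 73.1% of its vehicle UMIs and 52.9% of its panobinostat UMIs, and the variance of thinned counts was 4.78 and 5.79 times their mean. Counting intervals treat UMIs as independent and leave this clumping out.

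Snrpn encodes SmN, a spliceosome protein best known from neurons. With 837 UMIs it reached 9.22 CPM in vehicle cells and with 2284 UMIs 21.9 CPM in panobinostat cells, 2.38-fold higher (log2 ratio 1.25, interval 1.13 to 1.37). In cells called G1 (1016 and 2277) the log2 ratio was 0.94 and the call ended. The variance of its thinned counts was 1.01 and 1.10 times the mean. At means of 0.157 and 0.396 UMIs per cell such values do not show whether a gene is evenly spread. The share of thinned cells with a UMI was 14.5% (13.1 to 15.9) and 31.4% (29.5 to 33.4), against 23.6% and 56.5% unthinned. The gene (chromosome 7, 59982495 to 60140219) overlaps Gm38393 and Snurf on the same strand, so reads could be shared between them. Gm38393 stood at 1.48 and 2.12 CPM, and Snurf had no row in the matrix.

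Phlda2 encodes a pleckstrin homology protein that limits the growth of the placenta, and lies on chromosome 7 from 143501545 to 143503150. Vehicle cells held 941 UMIs, or 10.4 CPM (9.72 to 11.05), and panobinostat cells 305, or 2.93 CPM (2.61 to 3.28). The level was 3.54-fold lower (log2 ratio -1.82, interval -2.02 to -1.64). Its log2 ratio in cells called G1 was -1.68, but at 9.38 and 2.93 CPM it reached the floor in neither library. UMIs of Phlda2 were found in 17.2% of thinned vehicle cells (15.7 to 18.8) and 5.18% of thinned panobinostat cells (4.29 to 6.18), against 24.4% and 12.1% unthinned.

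Ppp1r9a encodes neurabin, which binds actin filaments and brings protein phosphatase to them. Vehicle cells held 2623 UMIs (28.9 CPM) and panobinostat cells 946 (9.08 CPM), 3.18-fold lower (log2 ratio -1.67, interval -1.78 to -1.56). The share of thinned cells with a UMI was 39.7% (37.7 to 41.7) and 14.7% (13.2 to 16.2), against 52.3% and 31.0% unthinned. The variance of its thinned counts was 1.15 and 1.11 times the mean, at means of 0.539 and 0.168 UMIs per cell. As for Snrpn, such values at low counts do not show an even spread.

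Igf2r encodes the mannose 6-phosphate receptor, which carries enzymes to lysosomes and clears the growth factor IGF2 (chromosome 17, 12682406 to 12769664). It was the 1 gene of the maternal copy with a higher level with panobinostat, at 34.8 CPM (3159 UMIs) and 64.1 CPM (6675 UMIs), a ratio of 1.84 (log2 0.88, interval 0.82 to 0.94) that stayed under 2-fold. It passed 2-fold per cell (log2 ratio 1.40) and in cells with at most 5% mitochondrial counts (1.05), where 198 panobinostat cells were left. The share of thinned cells with a UMI was 44.7% (42.7 to 46.7) and 64.5% (62.5 to 66.5), against 57.5% and 85.5% unthinned.

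Kcnq1ot1 is a long noncoding RNA made from the paternal chromosome that silences its neighbours there. It lies inside Kcnq1 on the opposite strand (chromosome 7, 143203458 to 143296549). Its 10961 and 12002 UMIs gave 120.8 CPM with vehicle and 115.2 with panobinostat. The log2 ratio of -0.07 (interval -0.11 to -0.03), at 2 decimals that of the median gene, turned to 0.45 per cell. The share of thinned cells with a UMI was 75.5% (73.7 to 77.2) and 70.6% (68.7 to 72.5), and with cells thinned to 10000 UMIs 58.2% and 55.4%. Unthinned cells, with a median of 27923.5 and 42394 UMIs, gave the other order, at 79.5% and 83.2%. With 1 library per treatment no more is read from the order.

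**Figure D2:**
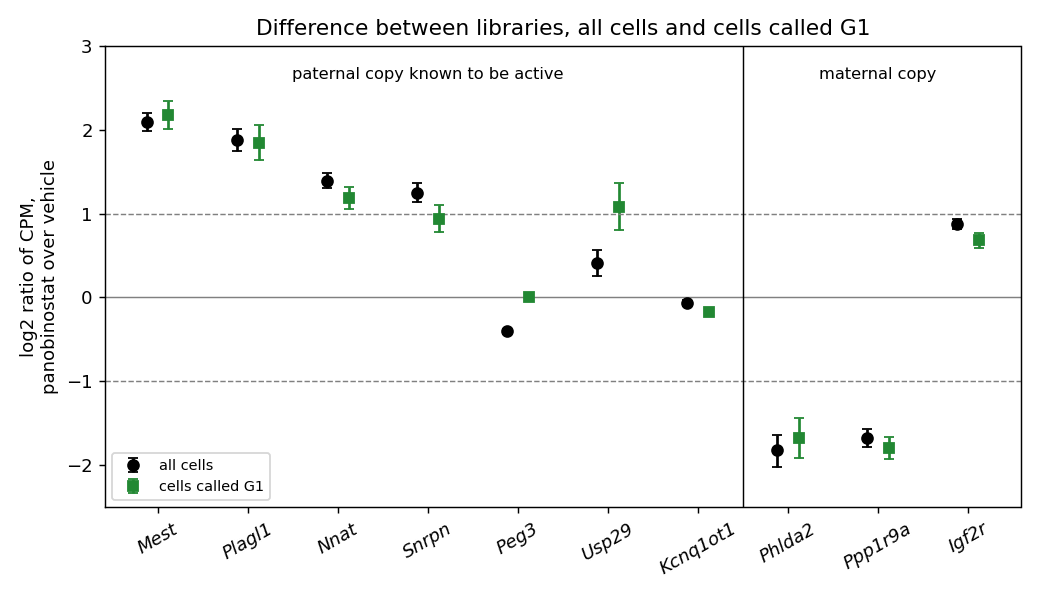
Log2 ratio of CPM, panobinostat over vehicle, with exact 95% counting intervals, over all cells (circles) and over cells called G1 (squares); dashed lines mark 2-fold. Peg3 moves from -0.40 to 0.01 and Usp29 from 0.41 to 1.08 between the 2 choices of cells, while Phlda2 (-1.82 and -1.68) and Ppp1r9a (-1.67 and -1.80) stay below the lower line.

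Peg3 and Usp29, the pair that starts from the shared stretch shown above, stayed under 2-fold. Peg3 encodes a large zinc finger protein and had 21763 and 18874 UMIs, levels of 239.8 CPM with vehicle and 181.2 with panobinostat. Its log2 ratio was -0.40 (interval -0.43 to -0.38) and turned to 0.12 per cell and 0.01 over cells called G1. In cells with at most 5% mitochondrial counts (1322 and 198) it was -1.06, past 2-fold. Usp29 encodes a deubiquitinating enzyme and had 563 and 859 UMIs, levels of 6.20 and 8.24 CPM, below the floor in both libraries, with a log2 ratio of 0.41 (interval 0.26 to 0.57). The Usp29 ratio in G1 cells was 1.08, still below the floor. The share of thinned cells with a Peg3 UMI was 69.4% (67.5 to 71.3) and 69.7% (67.8 to 71.6), against 73.1% and 81.1% unthinned. Usp29 was seen in 10.4% (9.18 to 11.7) and 12.9% (11.5 to 14.3) of thinned cells and in 14.9% and 25.6% of unthinned ones, and the intervals of the thinned shares overlap for both genes.

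Within the vehicle library Peg3 and Usp29 had the largest log2 ratios of S over G1 among the 10 genes. Peg3 stood at 180.3 CPM in 1016 cells called G1, 294.7 CPM in 768 called S and 256.5 CPM in 1070 called G2/M. For Usp29 the levels were 3.85, 8.61 and 6.72 CPM, a log2 ratio of 1.16 for S over G1 and of 0.80 (interval 0.48 to 1.13) for G2/M over G1. For Peg3 these ratios were 0.71 (0.66 to 0.76) and 0.51 (0.46 to 0.56). Of the other 8 genes, Mest (0.42) and Phlda2 (0.42) were higher in S than in G1 with intervals that exclude equality, and Nnat, Snrpn, Kcnq1ot1, Ppp1r9a and Igf2r were lower, between -0.48 and -0.26. Plagl1, at 6.45 CPM in G1, 7.36 in S and 5.56 in G2/M, had intervals that include equality. The panobinostat library held too few S and G2/M cells (3 and 1) for the same comparison.

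Across cells Usp29 was higher where Peg3 was higher. Among thinned vehicle cells the gene most highly correlated with Usp29, of 9320 compared by Pearson's r on log2(count + 1), was Peg3 (r = 0.26 over 2401 cells), and among thinned panobinostat cells it was Peg3 again (r = 0.27 over 2221 cells, 9540 genes). Of the 36 pairs among the 9 genes compared in each library, Peg3 with Usp29 was the 1 pair at 0.2 or above, and the other pairs lay between -0.05 and 0.10 over both libraries. In vehicle cells without a Peg3 UMI after thinning (734 cells) Usp29 stood at 1.24 CPM (0.72 to 1.99), and in cells with over 10 (343 cells) at 16.6 CPM (13.6 to 20.03), 13.3-fold higher (7.95 to 23.8). In panobinostat cells the levels were 2.63 CPM (672 cells) and 23.4 CPM (188 cells), 8.88-fold apart (5.86 to 13.7). Kcnq1ot1, which lies far off on the same chromosome, differed 1.13-fold (1.03 to 1.22) and 1.37-fold (1.23 to 1.53) between the same cells. All cells of 1 library share that library and, after thinning, its depth.

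**Figure D3:**
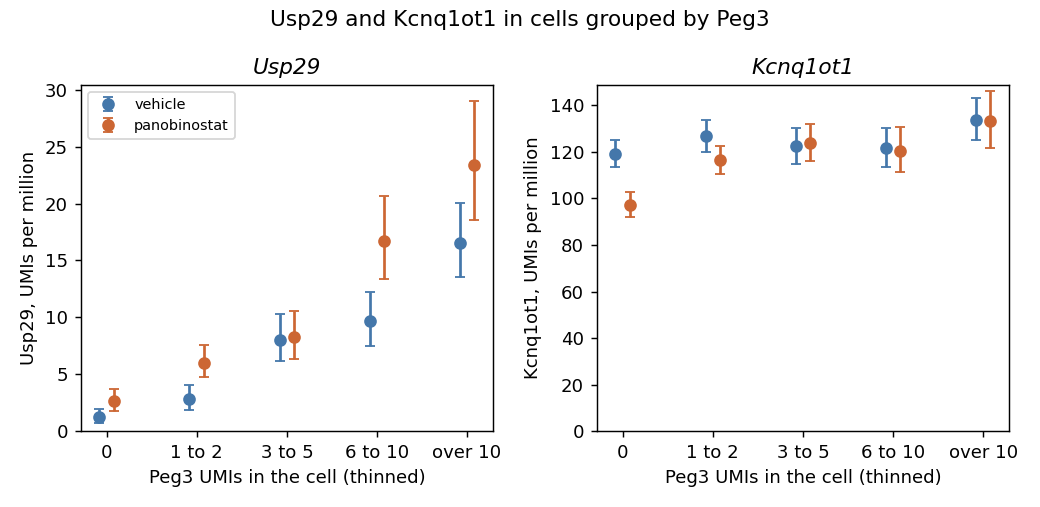
Usp29 (left) and Kcnq1ot1 (right) in CPM, with exact Poisson 95% intervals, in cells grouped by their Peg3 UMIs after thinning, for both libraries. Usp29 goes from 1.24 to 16.6 CPM with vehicle and from 2.63 to 23.4 CPM with panobinostat, while Kcnq1ot1 stays between 97.2 and 133.9 CPM.

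Peg3 itself varied widely between cells, with a variance of thinned counts 8.85 times the mean with vehicle and 7.38 times with panobinostat. With vehicle its highest correlations were with Havcr1, a marker of injured tubule cells (r = 0.43), Fst, which encodes follistatin (0.42), and the interferon-induced Ifit3 (0.41). With panobinostat they were with Fst (0.39), Lhfp (0.38) and the actin-binding Cald1 (0.36). For 2 other genes 1 partner reached 0.2, the nuclear RNA Malat1 for Kcnq1ot1 with vehicle (0.21) and the basement membrane collagen Col4a1 for Nnat with panobinostat (0.21). Mest, Plagl1, Snrpn, Phlda2, Ppp1r9a and Igf2r had no gene at 0.2 in a library where they were compared. Plagl1 with vehicle and Phlda2 with panobinostat were seen in under 10% of thinned cells and were not compared. Of the noncoding RNA Meg3 in the Dlk1-Dio3 region, 1327 thinned panobinostat cells held a UMI and 894 held none. Between these cells Nnat differed most, at 44.1 CPM with and 29.5 CPM without Meg3 (log2 ratio 0.58, interval 0.42 to 0.74). Plagl1 was higher with Meg3 as well (0.27, 0.08 to 0.47), and Peg3 was lower (-0.24, -0.30 to -0.17). The intervals of the other genes include equality, with Mest at 44.1 and 46.7 CPM.

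**Figure D4:**
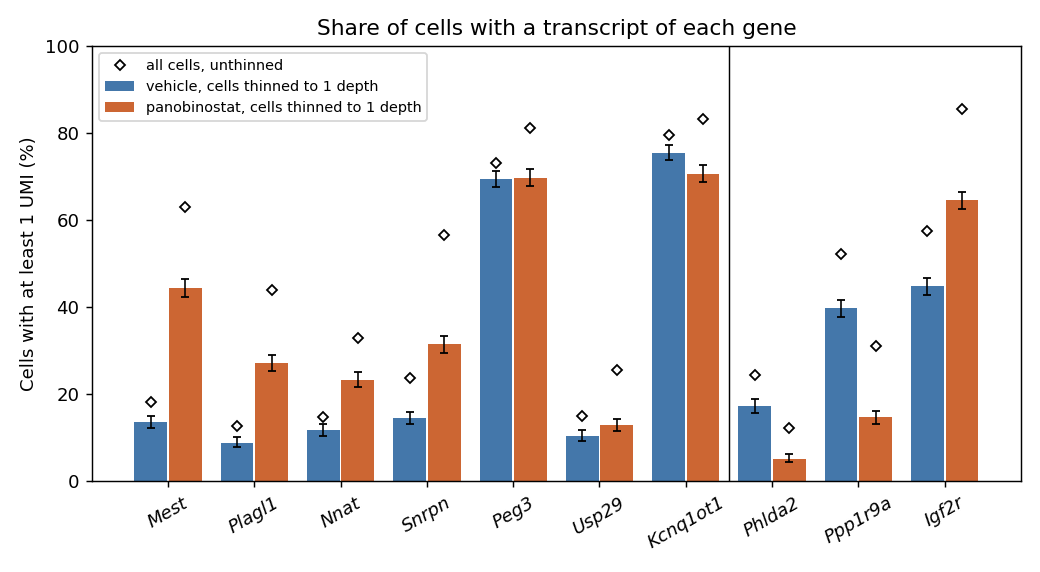
Share of cells with at least 1 UMI of each gene after thinning to 18663 UMIs per cell (bars, with exact binomial 95% intervals) and in unthinned cells (diamonds), vehicle left and panobinostat right of each pair. Mest goes from 13.5% to 44.4% of thinned cells and Ppp1r9a from 39.7% to 14.7%, while Peg3 stands at 69.4% and 69.7%.

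The listed neighbours of Mest, Plagl1, Nnat and Snrpn that reached 1 CPM stayed under 2-fold. Copg2, which ends against Mest, had a log2 ratio of 0.11 and Cep41 one of 0.14, beside 2.09 for Mest. Around Plagl1 the values were 0.57 for Sf3b5, 0.35 for Phactr2 and -0.89 for Ltv1, and Blcap, which encloses Nnat, stood at 45.6 and 40.6 CPM (-0.17) beside Ctnnbl1 (-0.06). Next to Snrpn, the ubiquitin ligase gene Ube3a (-0.07) and the imprinted Ndn (51.6 and 55.8 CPM, 0.11), whose paternal copy is the active one as well, stood near the median gene. Magel2, a further neighbour with an active paternal copy, had 1 and 21 UMIs, under 1 CPM in both libraries. Its log2 ratio was 4.19 (interval 1.56 to 9.56), above that of Snrpn. Klf14, a neighbour of Mest with an active maternal copy, had 0 and 44 UMIs, also under 1 CPM in both. The interval of its log2 ratio begins at 3.32, above the ratio of Mest.

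In the domain of Kcnq1ot1 and Phlda2 neighbours differed in direction. Slc22a18, a transporter gene with an active maternal copy, was higher with panobinostat (271 and 1818 UMIs, 2.99 and 17.4 CPM, log2 ratio 2.55, interval 2.36 to 2.74). It passed the floor through the panobinostat library alone, and its log2 ratio was 1.90 in cells called G1. The cyclin-dependent kinase inhibitor gene Cdkn1c stood just under 2-fold (28.8 and 55.9 CPM, 0.96), and its log2 ratio was 0.44 (0.35 to 0.53) in cells called G1. Nap1l4 (-0.71), Tnfrsf23 (-0.53), Osbpl5 (-0.12), Tssc4 (-0.03), Cars (-0.05), Cd81 (0.22) and Kcnq1 (0.26) lay between, and Phlda2 was the 1 gene of this group called lower. Near Ppp1r9a, the paraoxonase genes Pon2 (98.4 and 59.9 CPM, -0.72) and Pon3 (22.6 and 11.4 CPM, -0.98) and the sarcoglycan gene Sgce (-0.60) had negative ratios under 2-fold, and Peg10 (0.22) and Asb4 (0.71) positive ones. Pon3 passed 2-fold in cells called G1 (-1.04), and with TMM or DESeq2 factors 1 gene of the maternal copy list was called lower. Airn, the antisense RNA that silences the paternal Igf2r, stood at 3.54 and 8.16 CPM (log2 ratio 1.21), below the floor in both libraries, and Zim1 near Peg3 reached 0.21 and 1.01 CPM. Antisense pairs such as Nnat and Blcap or Airn and Igf2r can be told apart only if counting used the strand, and no source used here says whether it did.

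**Figure D5:**
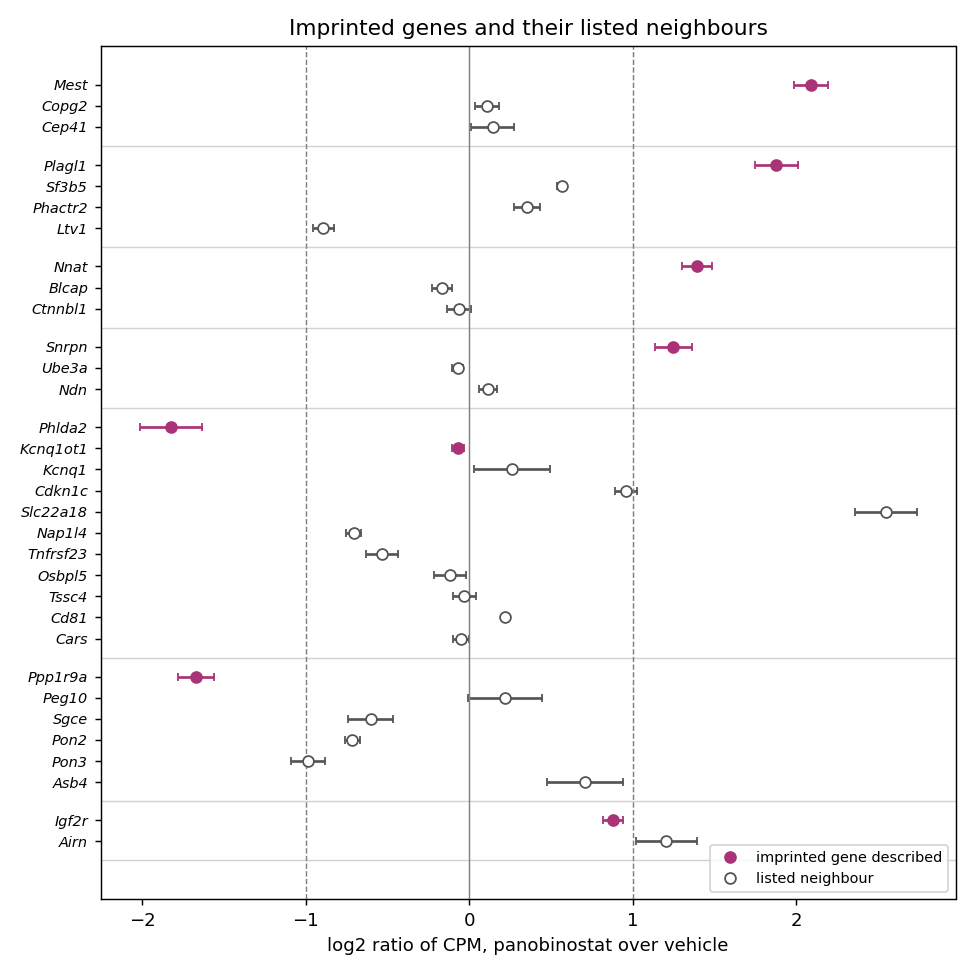
Log2 ratio of CPM, panobinostat over vehicle, with exact 95% counting intervals, for 8 of the imprinted genes (filled) and their listed neighbours with at least 1 CPM in 1 library (open); Peg3 and Usp29 are left out. Each of Mest, Plagl1, Nnat and Snrpn stands above the neighbours drawn. Klf14 near Mest and Magel2 near Snrpn, under 1 CPM in both libraries, are not drawn. In the group of Kcnq1ot1 the values run from -1.82 for Phlda2 to 2.55 for Slc22a18.

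Among the other listed imprinted genes outside Dlk1-Dio3 that passed the floor of 10 CPM, 2 were called. In the matrix were 17 further genes with an active paternal copy, of which 5 passed the floor and 1 was called, as higher (all genes: 9.85% higher, 11.0% lower). The median log2 ratio of the 5 was 0.11. The 1 was Mcts2 (17.1 and 35.3 CPM, 1.05), a retrogene whose reads may be shared with its parent gene; that call ended with TMM factors, DESeq2 size factors or thinned cells. Inpp5f (0.59), Ndn (0.11), Impact (-0.20) and Sgce (-0.60) were the others. Of 23 listed with an active maternal copy 12 passed, 1 (Slc22a18) was higher and 0 lower, with a median of -0.09. The copy is the one named in the lists, which were not divided by tissue. Whether these genes are imprinted in these cells was not tested. The maternal-copy genes called higher became 2 when ratios were centred on the median gene, per cell, without the 5% of cells with the most UMIs, and in cells with at most 5% mitochondrial counts, where 2 were lower as well. With counts this small, neither list is read as differing from all genes. Atp10a (-0.55) was among those under 2-fold. Gnas (-0.60), Grb10 (-0.68), Blcap (-0.17) and H13 (0.15), listed apart as genes in which the active copy depends on the transcript or tissue, stayed under 2-fold. By the same count in G1 cells there were 1 higher and 0 lower of 5 for the paternal copy, and 1 higher and 1 lower of 11 for the maternal copy, against 8.97% higher and 7.11% lower of 8660 genes.

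Several genes that set or keep imprints had lower CPM with panobinostat. The matrix held 21 of them, 16 passed the floor, 6 were called lower and 0 higher (all genes: 11.0% and 9.85%), and the median log2 ratio was -0.34. Per cell, with no scaling for depth, 2 were lower and the median turned to 0.18, where that of all genes was 0.45. The 6 were Hells (67.8 and 10.7 CPM, -2.67) and Uhrf1 (62.9 and 9.99 CPM, -2.65), which serve maintenance methylation, the methyltransferase gene Dnmt1 (68.2 and 29.9 CPM, -1.19), Mbd3 of a deacetylase complex (-1.42), the insulator factor Ctcf (-1.23) and Trim28 (124.0 and 53.3 CPM, -1.22), the corepressor that ZFP57 recruits. Hells, Uhrf1 and Ctcf are also in the S and G2/M lists used for the phases. In cells called G1, which are chosen by low scores on those lists, 1 of 15 was lower, Mbd3 (-1.18), against 7.11% of genes. There Dnmt1 turned to 0.61, Hells stood at -0.04 and Uhrf1 at 0.10 below the floor, and Trim28 (-0.81) and Ctcf (-0.68) were under 2-fold. Zfp57 itself stood at 5.99 and 7.08 CPM, under the floor.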

How the data were processed

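The authors deposited 1 matrix of raw UMI counts for 19394 genes and 5135 cells, with no normalization. Cell Ranger 3.0.1 and mm10 are named per the submitters' processing notes. For annotation and strand: not given in the sources used here. Cells were assigned to libraries by the mark ending each deposited barcode, CTRL read as vehicle and PANO as panobinostat, and 0 barcodes of 16 bases occurred in both. No cell was removed and no doublets were called here. The fewest genes in a cell were 1798 and the highest mitochondrial share was 9.98%.

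Counts were summed per library and scaled to CPM, with exact Poisson intervals. Log2 ratios have exact conditional binomial (Clopper-Pearson) 95% intervals. No p-value was computed. The precision is set by depths of 90754967 and 104188927 UMIs, and intervals cover counting error only. Phases were scored with scanpy 1.11.5. TMM factors came from edgeR 4.0.16 and size factors from DESeq2 1.42.0; R 4.3.3, Python 3.11.15, numpy 2.4.6 and scipy 1.17.1 were used. Alternatives were other scalings, floors and folds, and subsets of cells. The script with the calling rule was tested on simulated counts. Promoter sequences are from the RefSeq table. Of the symbols, 98.7% occur in GENCODE M21.

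The genes, lists and rules were chosen with earlier results of these data known. Named genes are the 10 genes, listed neighbours reaching 1 CPM, up to 6 genes per list past the floor with the largest absolute log2 ratio, Meg3, Pax2 and Pax8, and up to 3 genes per described gene with a correlation of at least 0.2 over cells, among genes seen in at least 10% of them. Genes named beyond this rule were chosen after their values were seen: Zfp57, Gm38393, Magel2, Klf14, the markers with their own values, and those under Other observations. Values are given for some of the marker genes, and the others are not reported here.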

Additional observations from a re-analysis of the deposited data

How the results depend on the processing

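The direction of Mest, Plagl1, Nnat, Snrpn, Phlda2, Ppp1r9a, Usp29 and Igf2r was the same under all 10 alternatives that give a ratio, 1 of which (leaving out the 5% of cells richest in the gene) was chosen after seeing the data. That step takes the larger share of UMIs where a gene is sparser, so it widens a ratio by its construction and gave the widest values for Mest, Plagl1, Nnat and Phlda2. Log2 ratios ran from 1.94 to 2.76 for Mest, 1.75 to 2.59 for Plagl1, 1.18 to 2.20 for Nnat, 0.94 to 1.77 for Snrpn, -2.10 to -1.30 for Phlda2, -2.11 to -1.15 for Ppp1r9a, -1.06 to 0.12 for Peg3 and -0.20 to 0.45 for Kcnq1ot1. Over cells called G1 the members lower were 1 and all genes lower 616, as Phlda2 did not reach the floor there. With a floor of 50 CPM 0 of the 10 genes were higher and 0 lower, of 295 higher and 369 lower among all genes, since the genes called lie below it. At 3-fold 2 of the 10 were higher and 2 lower, with 448 higher and 393 lower of all genes. All genes counted 2036 higher and 438 lower with UMIs per cell, 2344 higher at a floor of 1 CPM, 4179 and 1870 with no floor, and 1708 and 2059 at 1.5-fold. At the depth of thinned cells a share of 0 in the vehicle library allows up to 0.125%. No paired analysis was possible because each treatment has 1 library.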

Other observations

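With no floor, 10 of the 17 further imprinted genes with an active paternal copy passed 2-fold upward and 1 downward, against 21.5% and 9.64% of all genes. Mcts2, Airn and Magel2, given above, are among the 10. The median log2 ratio of those with a UMI in both libraries was 1.13, against 0.13 over all such genes of the matrix. Igf2, given below, is among the 10 but has no finite ratio and is left out of that median. The genes named here were chosen after their values were seen. Sfmbt2, a Polycomb-related gene, had 75 UMIs (0.83 CPM) in vehicle cells and 817 (7.84 CPM) in panobinostat cells, with a log2 ratio of 3.25 (2.90 to 3.61). Zdbf2 went from 71 to 762 UMIs (3.22), the amino acid transporter gene Slc38a4 from 29 to 263 (2.98), the exchange factor gene Rasgrf1 from 2 to 94 (5.36, 3.46 to 8.42) and Zrsr1 from 270 to 768 (1.31). Peg12 was the 1 lower gene, with 66 and 31 UMIs. Igf2, the fetal growth factor, had 0 UMIs with vehicle, which allows 0.0331 CPM, and 8 UMIs with panobinostat.

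Of the 23 genes listed with an active maternal copy, 6 passed 2-fold upward and 0 downward with no floor. The upward share lies near the 21.5% of all genes. Besides Slc22a18 they included the matrix proteoglycan gene Dcn (4 and 125 UMIs), which is also a fibroblast marker, Ascl2 (9 and 95 UMIs) and Klf14 (0 and 44 UMIs). The growth-limiting RNA H19 had 5 and 18 UMIs.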
